A study of Rattus norvegicus with 2 samples.

Results

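Protein phosphatases remove the phosphate groups that kinases add, and their circular RNAs were measured here in 2 libraries of a rat model of bone cancer pain. A circular RNA (circRNA) is a closed loop in which the end of an exon is spliced back to the start of the same or an earlier one, and it is counted by the reads that cross this back-splice junction. The members were all circRNAs in the deposited table that were assigned to a single gene whose symbol begins with PTPR, PTPN, PPP1 to PPP6 or PPM1. They made 164 of 17260 circRNAs, from 48 of 4991 single host genes.

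In the bone cancer pain group, live cells of Walker256, a mammary carcinoma line of the rat that was grown as ascites, were put into the tibia. In the control group the rats received cells of the same line boiled for 20 minutes, so both groups had surgery and cell material. Each group had 3 animals, killed 21 days after surgery; whether their RNA was pooled is not stated. The labels describe the RNA in ways that disagree, as ascitic cancer cells, as the Walker256 line and as cells of the spinal cord of injected rats. RNA was depleted of ribosomal RNA and digested with 16 units of RNase R, which degrades linear RNA, before sequencing. With 1 library per group there was no replicate check and no test between conditions. Each ratio compares 2 libraries, and its exact 95% interval covers counting error only.

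The table gave 159941 junction reads for the control and 151685 for the bone cancer pain library, called the pain library below. Its identifiers were of human style: 46 phosphatase symbols were matched to rat genes by name, and 2 of these had the same chromosome number in both, and 6 phosphatase circRNAs were placed on chromosome 21 or 22, which the rat assembly GRCr8 lacks. Symbols and positions below are therefore the table's own and are not taken as rat positions. The table does not name its genome build. The submitters' notes name rn6, a rat build, but the human-style identifiers and chromosomes 21 and 22 do not go with rat positions. Which human build the positions follow was not tested. Of 15 neuronal and 8 microglial or macrophage markers, none had a circRNA in rows that name 1 gene. Of 10 oligodendrocyte markers 2 had one, of 7 astrocyte markers 1, of 9 carcinoma and epithelial markers 1, and of 9 fibroblast and endothelial markers 3. A row that names a neuronal marker beside other names had 2 reads, both in the pain library, and none of these counts bears on mRNA levels. The fibroblast and endothelial markers had 41 control and 79 pain reads, and the 1 carcinoma and epithelial marker, KRT7, had 2 and 15. The part of either list in any phosphatase value was not tested.

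Tyrosine phosphatases are single proteins with their own catalytic domain. Receptor types (PTPR) span the membrane and non-receptor types (PTPN) work inside the cell, where they set the length and strength of growth factor, adhesion and cytokine signals. Most serine-threonine phosphatases are instead complexes: a small set of catalytic subunits (PP1, PP2A, calcineurin, PP4, PP6) gains its targets through many regulatory subunits, while PP5 and the metal-dependent PP2C enzymes (PPM1) act as single chains. In the nervous system, calcineurin, PP1 and PP2A oppose kinases at synapses and ion channels, and SHP-2, the product of PTPN11, promotes RAS-ERK signalling. Junction reads describe the circRNA and measure neither the linear mRNA, the protein nor its activity.

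As a whole, phosphatase circRNAs took nearly the same share of both libraries. They had 1415 control reads, 0.885% of the library (exact binomial interval 0.839 to 0.932), and 1385 pain reads, 0.913% (0.866 to 0.962). Their ratio, pain over control, was 1.03 (0.958 to 1.11). A host gene or circRNA was called higher or lower by size alone, at a 2-fold ratio with 0.5 reads added to each library and 10 or more reads in total. Of the 48 host genes, 34 had 10 or more reads. Among these, 5 were higher, where 13.3% of all host genes were, 3 were lower, where 14.2% were, and 26 lay between. The called share, 23.5%, stood beside 27.5% in either direction over all 3036 host genes with 10 or more reads. The median log2 ratio was -0.05 for phosphatase hosts and -0.03 for all. Counting intervals left out 1 for 12 of the 34 hosts (35.3%), where 29.5% of all host genes had such an interval: 2 higher, all 3 lower and 7 of those between. Only 1 of these 8 called hosts, PPP6R1, had 20 or more reads.

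**Figure D1:**
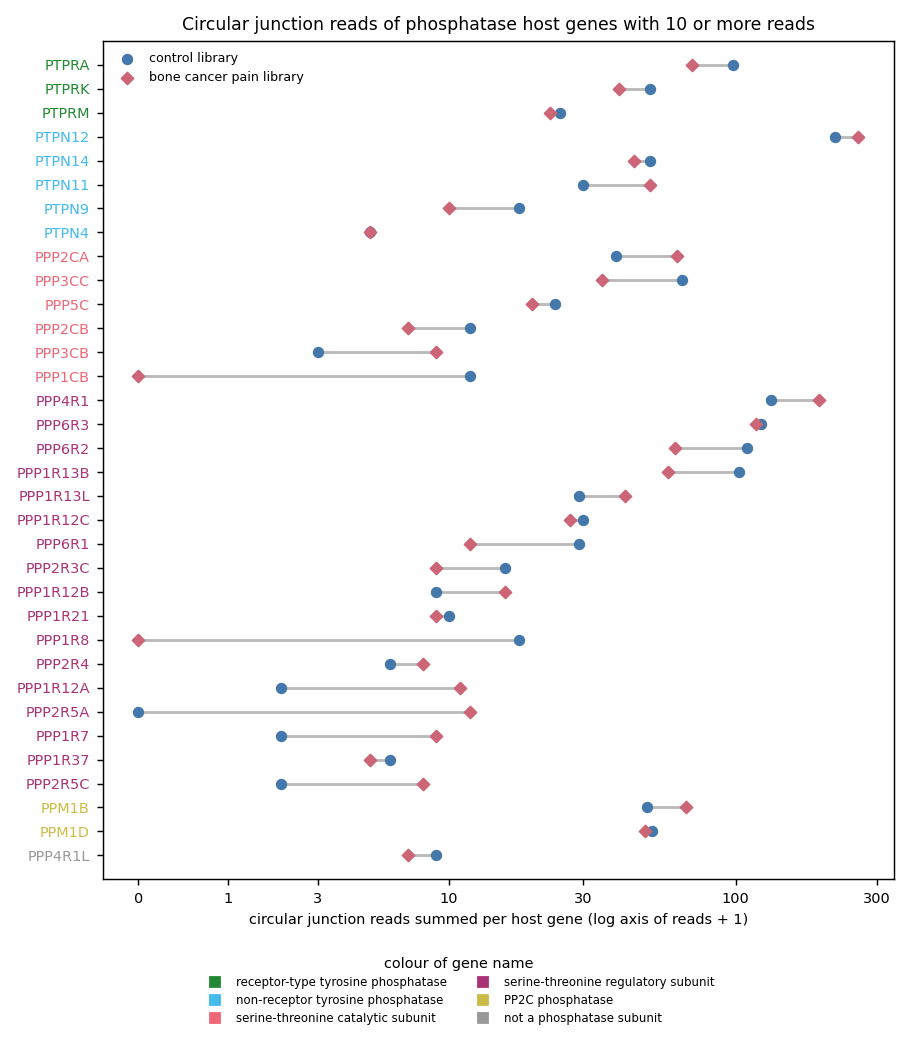
Circular junction reads (log axis of reads + 1) of the 34 phosphatase host genes with 10 or more reads in the control library (circles) and the pain library (diamonds), 1 library each, grouped by role. PTPN12 had the most reads, 217 and 260, and the widest gaps were in host genes with none listed in 1 library, such as PPP1R8 (18 and 0) and PPP2R5A (0 and 12).

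Receptor-type tyrosine phosphatases were somewhat lower in the pain library. Over 5 host genes and 22 circRNAs they had 183 control and 138 pain reads, a ratio of 0.795 (0.633 to 0.997). PTPRA, a widely expressed receptor that activates SRC kinases, held 52.6% of these reads. Its sum was 98 control and 71 pain reads, a ratio of 0.764 (0.555 to 1.05). Without PTPRA the class ratio was 0.831 (0.594 to 1.16), an interval that includes 1. The class log2 ratio, -0.33, was 0.05 without the circRNA with the most reads of each host gene, and -0.14 with rows that name a receptor-type gene beside other names. PTPRK, an adhesion receptor that binds its own kind on neighbouring cells, had 51 and 40 reads (0.827, 0.533 to 1.28). PTPRM, of the same adhesion subfamily, had 25 and 23 (0.970, 0.526 to 1.78). PTPRF, an adhesion receptor of the LAR type known for its role in axon growth, had 7 control reads on 3 circRNAs and none listed in the pain library. PTPRJ had 2 and 4. All 3 receptor-type hosts with 10 or more reads lay between the size limits.

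Within PTPRA, 2 circRNAs that end at the same position differed in opposite directions. The short one (hsa_circ_0006117, chromosome 20, 2944918 to 2945848, span 931 bp) had 66 control and 40 pain reads, a ratio of 0.639 (0.420 to 0.961). The long one (hsa_circ_0005265, 2928628 to 2945848, span 17221 bp) had 7 and 20 reads, a ratio of 3.01 (1.22 to 8.43). As a share of PTPRA reads the long form was 7.14% (2.92 to 14.2) in the control and 28.2% (18.1 to 40.1) in the pain library. It was chosen because its share differed most in the gene, so these values are a description. Another, separate PTPRA circRNA (hsa_circ_0001127, 2967411 to 2969120) had 18 and 8 reads (0.469, 0.176 to 1.13). PTPRK reads were mostly on hsa_circ_0005771 (chromosome 6, 128385903 to 128388937), with 34 and 28 reads. In PTPRM, hsa_circ_0002872, singled out after its values were seen, had 15 and 4 reads. The other 5 PTPRM circRNAs in rows that name 1 gene had at most 6 in either library. Outside the members, hsa_circ_0004188, listed with PTPRM and small RNA names, had 9 and 9.

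Non-receptor tyrosine phosphatases were slightly higher in the pain library. Over 7 host genes and 35 circRNAs they had 321 control and 378 pain reads, a ratio of 1.24 (1.07 to 1.44). PTPN12, the cytoplasmic phosphatase PTP-PEST that acts on focal adhesion proteins, held 68.2% of them. It had 217 and 260 reads over 14 circRNAs (1.26, 1.05 to 1.52), the most of any phosphatase host. Without it the class had 104 and 118 reads (1.196, 0.911 to 1.57), and without the circRNA with the most reads of each host gene the class log2 ratio was -0.12 in place of 0.31. PTPN14, a FERM-domain phosphatase linked to the Hippo pathway, had 51 and 45 (0.930, 0.609 to 1.42), with 29 and 31 of them on hsa_circ_0008659 (chromosome 1, 214564331 to 214571344). PTPN9, which carries a lipid-binding domain, had 18 and 10 (0.586, 0.242 to 1.34). PTPN4 had 5 and 5, on different junctions in each library. PTPN13 had 4 reads and PTPN1 had 3, all in the pain library. None of the 5 hosts with 10 or more reads passed 2-fold.

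The PTPN12 difference lay in a single short circle. The circRNA hsa_circ_0008139 (chromosome 7, 77210744 to 77212967, span 2224 bp) had 91 control and 145 pain reads, a ratio of 1.68 (1.28 to 2.21), and was the most abundant phosphatase circRNA. Its share of PTPN12 reads was 41.9% (35.3 to 48.8) in the control and 55.8% (49.5 to 61.9) in the pain library. The other 13 PTPN12 circRNAs together gave a log2 ratio of -0.05. Of the 14, 5 began at position 77210744, and these held 70.0% of control and 73.8% of pain reads. Among them, hsa_circ_0002458 (to 77221573) had 37 and 26 reads (0.741, 0.431 to 1.26). Another circle, hsa_circ_0003764 (77214860 to 77230123), had 28 and 33 (1.24, 0.728 to 2.14).

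**Figure D2:**
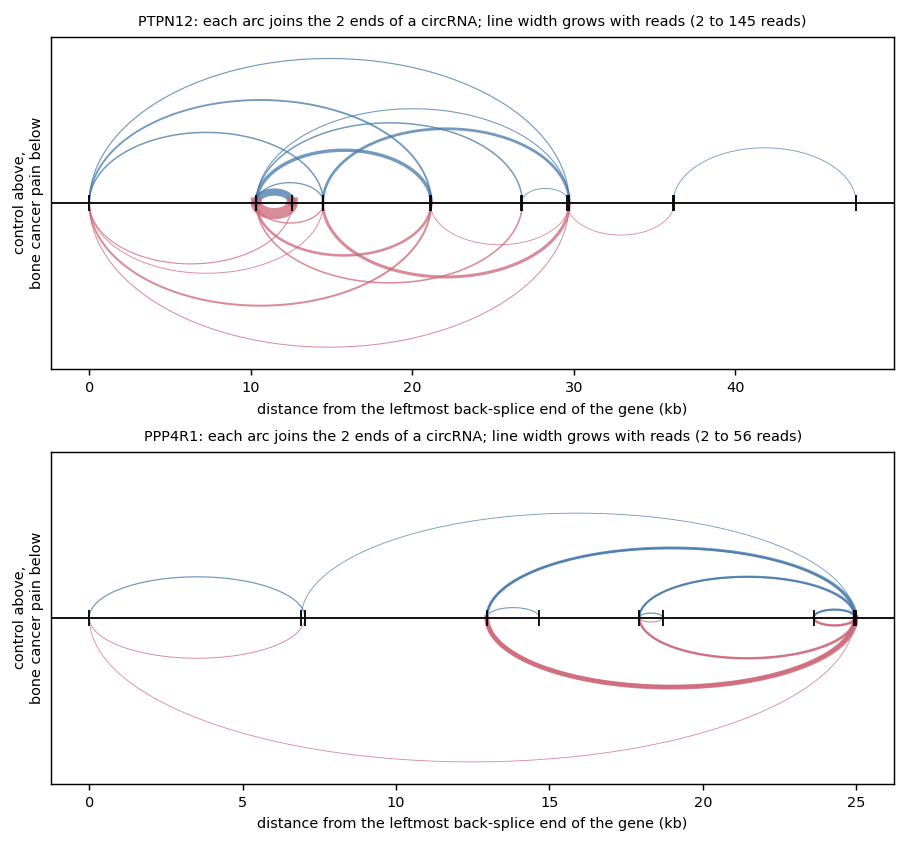
Back-splice junctions of PTPN12 and PPP4R1, drawn as arcs between the ends of each circRNA against the distance in kb from the leftmost end, with the control library above the line, the pain library below and line width growing with reads. In PTPN12 the short arc of 91 and 145 reads was the thickest in both libraries, and in PPP4R1 most arcs met at a pair of ends 51 bp apart.

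PTPN11, which encodes SHP-2, had 30 control and 51 pain reads, a ratio of 1.79 (1.12 to 2.92). In the control its reads were split about evenly between 2 circRNAs, with share intervals that overlap. A junction without a circBase identifier (its number in circBase, a public circRNA database) at chromosome 12, 112939948 to 112944226, had 14 and 37 reads, a ratio of 2.79 (1.47 to 5.58). The catalogued circle hsa_circ_0008666 (112915455 to 112915819, span 365 bp), singled out after its values were seen, had 16 and 2 reads. The first took 46.7% of PTPN11 reads in the control (28.3 to 65.7) and 72.5% in the pain library (58.3 to 84.1). The second took 53.3% (34.3 to 71.7) and 3.92% (0.478 to 13.5). With circBase identifiers only, the log2 ratio of PTPN11 was -1.80 in place of 0.83, so its direction depended on which junctions were counted.

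**Figure D3:**
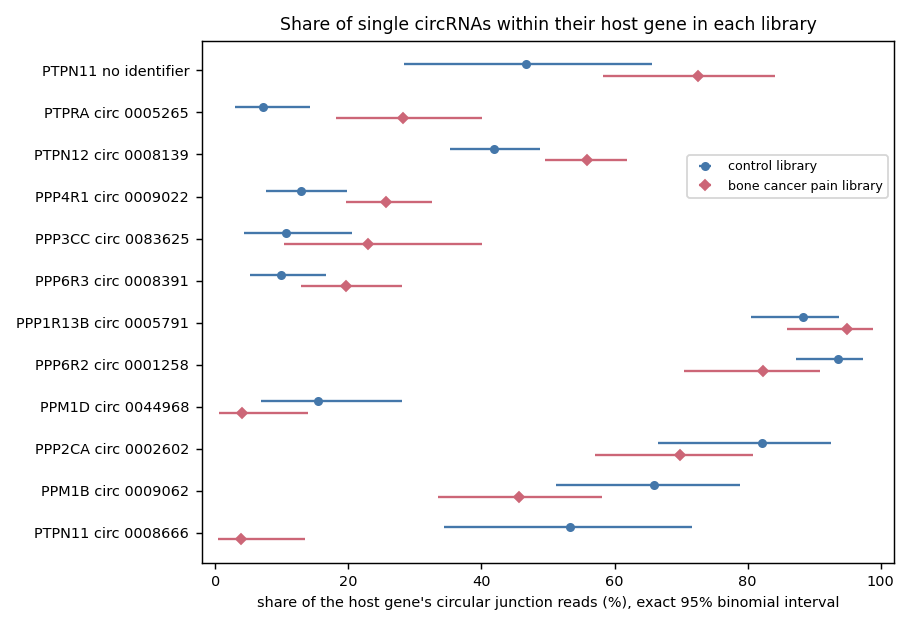
Share of a host gene's junction reads (%) on single circRNAs in the control (circles) and pain library (diamonds), with exact 95% binomial intervals, for the circRNA whose share differed most, among those with 10 or more reads, in each host gene with 3 or more circRNAs and 100 or more reads, and for the 2 PTPN11 circRNAs with 10 or more reads. Shares ran apart most for PTPN11 hsa_circ_0008666 (53.3% and 3.92%), and since the circRNAs were chosen for their differences the intervals are a description. Over all 41 phosphatase circRNAs with 10 or more reads in the host genes of that size, 4 (9.76%) had share intervals that did not overlap, beside 12.9% over all such circRNAs.

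Among the PP2C enzymes, PPM1B and PPM1D held nearly all reads. The class had 106 control and 121 pain reads over 5 host genes (1.204, 0.920 to 1.58). PPM1B, which dephosphorylates stress-kinase and NF-kB pathway proteins, had 50 and 68 (1.43, 0.981 to 2.11). Its main circle, hsa_circ_0009062 (chromosome 2, 44436349 to 44445676), had 33 and 31 reads, and its share of PPM1B reads was 66.0% (51.2 to 78.8) in the control and 45.6% (33.5 to 58.1) in the pain library. The circle hsa_circ_0004916 (44428325 to 44436466) had 3 and 17 reads, a ratio of 5.98 (1.73 to 31.8). PPM1D, the p53-induced phosphatase WIP1, had 52 and 49 reads (0.994, 0.659 to 1.497). Its circles hsa_circ_0004958 (chromosome 17, 58711214 to 58725443; 27 and 26 reads) and hsa_circ_0002598 (17 and 21) overlap by a short stretch, and the circle that spans both, hsa_circ_0044968 (58700882 to 58725443), had 8 and 2. PPM1A, PPM1F and PPM1H had 2 to 4 reads each, all in 1 library.

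**Figure D4:**
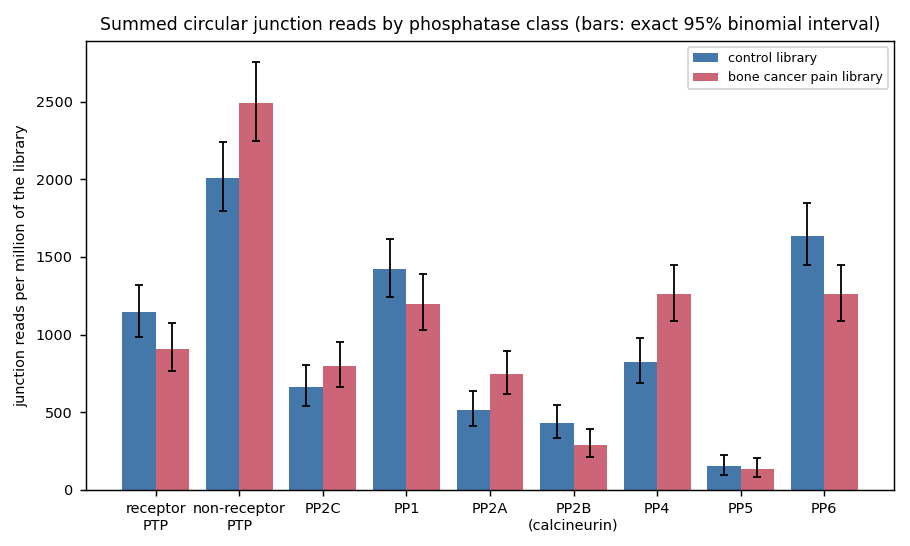
Summed junction reads (per 1000000 reads of the library) for each phosphatase class, control and pain, with exact 95% binomial intervals and 1 library per bar. PP4, which is PPP4R1 alone, had 825 and 1259 such units, and PP6 had 1638 and 1259.

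Among the serine-threonine phosphatases of the PPP family, 8 catalytic genes, PP5 included, had 160 control and 136 pain reads (0.896, 0.708 to 1.13). The 22 regulatory genes had 636 and 605 (1.00, 0.896 to 1.12). Rows that name such a gene beside other names, which are not members, held a further 82 and 68 reads for catalytic genes and 7 and 5 for regulatory ones. Without the circRNA with the most reads of each host gene, the log2 ratio was 0.27 in place of -0.16 for catalytic and 0.19 in place of 0.00 for regulatory genes. Of 6 catalytic hosts with 10 or more reads, 1 was higher, 1 lower and 4 between, and the lower one, PPP1CB, is called so only on rows that name 1 gene. Of 17 regulatory hosts, 4 were higher, 2 lower and 11 between, where 13.3% of all host genes were higher and 14.2% lower. The intervals of both ratios included 1 and overlapped each other; whether the subunit kinds differ was not tested.

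For PP1, almost all member reads were on regulatory subunits. The catalytic genes PPP1CB and PPP1CC had 14 control and 2 pain reads, against 213 and 180 for 11 regulatory genes (0.891, 0.727 to 1.09). PPP1CB, called lower, had 12 control reads on 2 circRNAs and none listed in the pain library. However, a PPP1CB circle that the table lists with a second gene name (hsa_circ_0007439, chromosome 2, 29006773 to 29011675), and that was therefore not a member, had 68 and 61 reads. With it the log2 ratio of PPP1CB was -0.31, so that call rested on the choice of rows.

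The ASPP proteins, PP1 partners that also bind p53, led the PP1 regulators. PPP1R13B (ASPP1) had 103 control and 59 pain reads (0.604, 0.431 to 0.840), nearly all on hsa_circ_0005791 (chromosome 14, 104245082 to 104263855), which had 91 and 56 (0.649, 0.457 to 0.915). Its paralog PPP1R13L (iASPP) went the other way in value, with 29 and 42 reads (1.53, 0.929 to 2.54), though its interval includes 1. The main PPP1R13L circle, hsa_circ_0008615 (chromosome 19, 45901263 to 45901597, span 335 bp), had 27 and 30. A second PPP1R13L junction without an identifier had 2 and 12 reads, and it was singled out after its values were seen.

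The myosin phosphatase targeting subunits, which direct PP1 to myosin light chain and so to contractility, had 41 control and 54 pain reads (1.39, 0.908 to 2.14). PPP1R12A (MYPT1) was called higher, with 2 and 11 reads (5.80, 1.27 to 53.8). On circRNAs listed in both libraries its log2 ratio was 0.92 in place of 2.28. PPP1R12B had 9 and 16 (1.88, 0.780 to 4.81), and PPP1R12C had 30 and 27 (0.949, 0.543 to 1.65). Nearly all PPP1R12C reads were on hsa_circ_0000958 (chromosome 19, 55610152 to 55614936; 28 and 27). PPP1R8 (NIPP1), a nuclear inhibitor of PP1 linked to splicing, was called lower: 2 circRNAs that share an end at position 28169841 of chromosome 1 had 9 control reads each, and none was listed in the pain library. PPP1R7 (SDS22), a regulator of PP1 assembly, was called higher with 2 and 9 reads on different junctions. With circBase identifiers only, its log2 ratio was -2.25, resting on 2 control reads, none listed in the pain library and the 0.5 reads added. PPP1R21 (10 and 9 reads), PPP1R37 (6 and 5), PPP1R9A (4 and 0) and PPP1R26 (0 and 2) had few reads.

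PP2A had the highest ratio among the holoenzymes with several member genes. Its 9 host genes had 82 control and 113 pain reads, a ratio of 1.45 (1.08 to 1.96). The catalytic gene PPP2CA held 52.3% of them, with 39 and 63 reads (1.70, 1.12 to 2.61), and without it the ratio was 1.23 (0.799 to 1.89). The main PPP2CA circle, hsa_circ_0002602 (chromosome 5, 133534777 to 133541822), had 32 and 44 reads (1.45, 0.899 to 2.36). The shorter hsa_circ_0073942 had 3 and 11, and a junction without an identifier 4 and 8. PPP2CB, a close paralog of PPP2CA, had 12 and 7 reads (0.615, 0.205 to 1.70). Reads of near-identical sequence could have been split between these paralogs, which was not tested.

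The targeting subunits of PP2A had few reads, and whether their subfamilies differ was not tested. The B' genes PPP2R5A, PPP2R5C and PPP2R5E, which direct PP2A to growth and mitosis substrates, had 2 control and 23 pain reads. Called higher were 2 of them: PPP2R5A, with 12 reads on hsa_circ_0002321 (chromosome 1, 212502477 to 212506940), all in the pain library, and PPP2R5C, with 2 and 8 (4.22, 0.842 to 40.8). With circRNAs not listed taken as 1 read, the log2 ratio of PPP2R5C was 0.99, just under 2-fold. The B'' gene PPP2R3C had 16 and 9 reads (0.593, 0.231 to 1.42). PPP2R4, the PP2A activator PTPA, had 6 and 8 on different junctions. The scaffold gene PPP2R1B had 3 and 3, and the B gene PPP2R2D 4 and 0.

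Calcineurin, the calcium-activated phosphatase that dephosphorylates NFAT, had members only on its catalytic genes, 69 control and 44 pain reads in all (0.672, 0.450 to 0.996). PPP3CC had 66 and 35 reads (0.559, 0.360 to 0.855). Most were on a short circle, hsa_circ_0083619 (chromosome 8, 22332467 to 22333137, span 671 bp), with 53 and 27 reads (0.537, 0.325 to 0.869). The PPP3CC circle whose share differed most, hsa_circ_0083625 (22355514 to 22370945), had 7 and 8 reads (1.205, 0.382 to 3.90). Its share was 10.6% (4.37 to 20.6) in the control and 22.9% (10.4 to 40.1) in the pain library, intervals that overlap. PPP3CB was called higher, with 3 and 9 reads (3.16, 0.789 to 18.2), an interval that includes 1. PP5, which has PPP5C as its single gene, had 24 and 20 reads on 1 circle, hsa_circ_0003356 (0.879, 0.460 to 1.66).

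PPP4R1, a regulatory subunit of PP4, was the host with the second most reads and was higher in the pain library, though under 2-fold. It had 132 control and 191 pain reads over 11 circRNAs, a ratio of 1.53 (1.22 to 1.92). In value, the difference lay mostly in circles that begin at position 9583115 of chromosome 18, a start singled out after the values were seen. These circles had 51 and 105 reads. Their share of PPP4R1 reads was 38.6% in the control (30.3 to 47.5) and 55.0% in the pain library (47.6 to 62.2), intervals that nearly touch. Of the 3 circles, hsa_circ_0046876 went the other way, with 5 control reads and none listed in the pain library. Circles beginning at 9588087 had 42 and 43, and those beginning at 9593766 had 30 and 38, of which the circle without an identifier had 10 and 18 (1.90, 0.831 to 4.60).

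Most PPP4R1 circles ended at one of 2 positions 51 bp apart, and each of the 3 main starts was joined to both. With the first start and the outer end (9595151), hsa_circ_0007509 had 29 and 56 reads (2.04, 1.28 to 3.31). With the inner end (9595100), hsa_circ_0009022 had 17 and 49 (3.04, 1.72 to 5.63). Both were called higher, where 17.3% of all circRNAs with 10 or more reads were. The ratio of hsa_circ_0007509 was just under 2-fold with median of ratios scaling (log2 0.94) and with 2 reads added (log2 0.98). All circles with the inner end took 33.3% of PPP4R1 reads in the control (25.4 to 42.1) and 46.6% in the pain library (39.4 to 53.9), intervals that overlap. The outer end took 51.5% (42.7 to 60.3) and 49.2% (41.9 to 56.5). PPP4R1L, a pseudogene of PPP4R1 that is a member by its name, had 9 and 7 reads. Reads of sequence common to gene and pseudogene could have been split, which was not tested either.

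The PP6 regulatory subunits, which target PP6 to DNA repair and mitotic substrates, were lower in the pain library as a class, and unequally so. The 3 genes had 260 control and 191 pain reads (0.775, 0.639 to 0.937). PPP6R3 had 122 and 117 reads (1.01, 0.778 to 1.31) spread over 19 circRNAs, the most of any phosphatase. PPP6R2 had 109 and 62 (0.600, 0.432 to 0.827), and PPP6R1 was called lower with 29 and 12 (0.436, 0.203 to 0.882). Without PPP6R3, the PP6 genes had 140 and 74 reads (0.557, 0.415 to 0.744). PPP6C, the catalytic gene, had 2 control reads and none listed in the pain library.

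In PPP6R2 and PPP6R1 a single circle set the value. The PPP6R2 circle hsa_circ_0001258 (chromosome 22, 50810449 to 50832564) had 102 control and 51 pain reads, a ratio of 0.527 (0.369 to 0.745), just inside the 2-fold limit. Without it, the other PPP6R2 circles gave a log2 ratio of 0.69 on few reads, and without the leading circle of each gene PP6 had 0.08 in place of -0.38. All PPP6R1 reads were on hsa_circ_0005746 (chromosome 19, 55756488 to 55757046, span 559 bp). PPP6R3 had no leading circle. The most abundant, at chromosome 11, 68282496 to 68287119 with no identifier, had 22 and 21 reads. Of 4 circles that end at 68370960, the 2 with the most reads differed in opposite directions in value: hsa_circ_0008391 (from 68363565) had 12 and 23 reads (2.02, 0.965 to 4.46) and hsa_circ_0002417 (from 68369331) had 22 and 12 (0.575, 0.259 to 1.21). Both of these intervals include 1. The gene's 2 called circles, singled out after their values were seen, were hsa_circ_0004449 (68272613 to 68305359), with 11 reads, all control, and hsa_circ_0023231 (68334482 to 68350597), with 10, all pain.

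**Figure D5:**
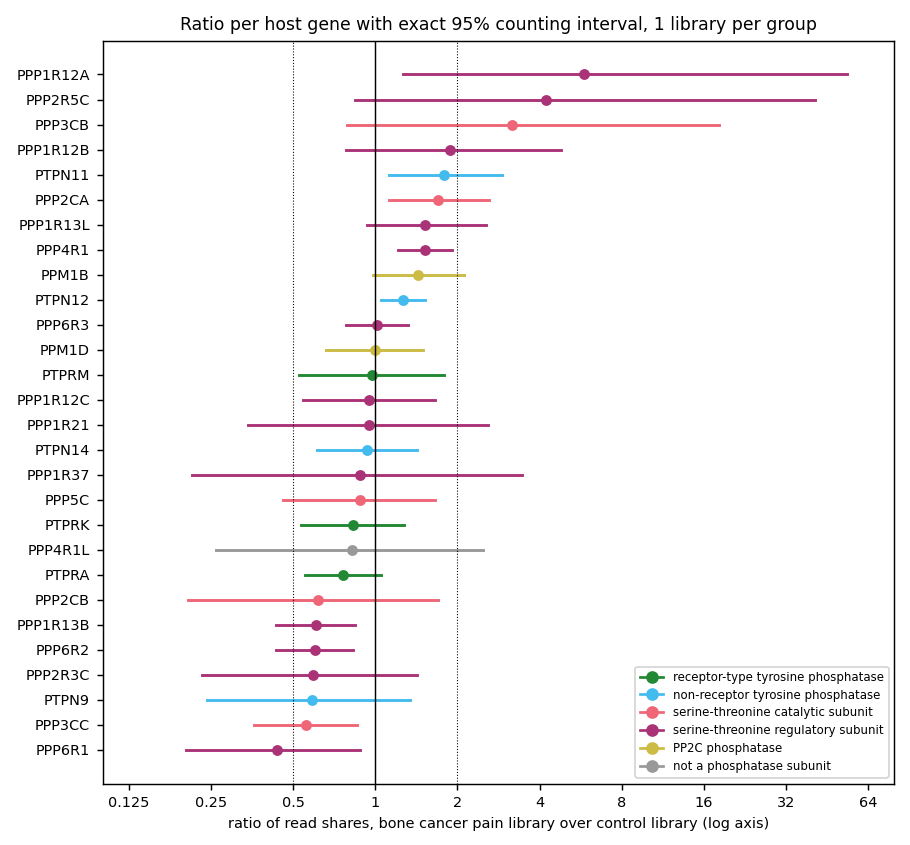
Ratio of read shares, pain over control (log axis), with exact 95% counting intervals, for phosphatase host genes with 10 or more reads and at least 1 circRNA listed in both libraries; dotted lines mark 2-fold. Intervals exclude 1 above for PPP1R12A, PTPN11, PPP2CA, PPP4R1 and PTPN12 and below for PPP6R1, PPP3CC, PPP6R2 and PPP1R13B. The intervals of PTPN12 (lower limit 1.051) and PTPRA (upper limit 1.047) end near 1, so whether they exclude it depends on the scaling.

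Over single circRNAs, 61 of the 164 had 10 or more reads; 11 of these were higher, 10 lower and 40 between. The lower share stood beside 17.0% of all circRNAs, and the share in either direction, 34.4%, beside 34.3%. The median log2 ratio was 0.08 for phosphatase circRNAs and 0.00 for all. Intervals left out 1 for 18 of the 61 (29.5%), where 26.0% of all circRNAs had such an interval: 9 higher, 4 lower and 5 between. Reads were concentrated: the 15 circRNAs with the most reads held 49.0% of phosphatase reads, and the 5 leading host genes 49.2%. At the other end, 103 circRNAs had 2 to 9 reads, and 14 host genes had fewer than 10. Of those 14, 6 had reads in the control library alone, 5 in the pain library alone and 3 in both.

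Each library listed 122 of the phosphatase circRNAs, and 80 were in both (48.8%, exact binomial interval 40.9 to 56.7), beside 43.9% of all circRNAs with a single host gene. The 42 listed for the control alone had a median of 3 reads and at most 11, and took 11.4% of its phosphatase reads. The 42 listed for the pain library alone had a median of 3 and at most 12, and took 10.8%. A circBase identifier was present for 101 of 164 (61.6%, 53.7 to 69.1), beside 58.6% of all. Ends of a phosphatase circle were a median of 7970 bp apart, beside 5804 bp, with spans from 155 bp in PTPN14 to 67325 bp in PTPRM. A start or end shared with another circle of the same gene was found for 106 (64.6%), beside 61.7% of all. There were 3.42 circRNAs per phosphatase host and 3.03 per host over the table. Differences between phosphatases and other genes in these features were not tested.

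Partners of the phosphatases were counted from 5 lists. Among dual-specificity, lipid and other phosphatases, 36 of 76 genes had a circRNA and 26 had 10 or more reads, of which 3 were higher and 4 lower. The higher ones with 20 or more reads were CDC14B, a phosphatase of cell cycle kinase sites (13 and 35 reads; 2.84, 1.46 to 5.85), and CTDSPL2 (7 and 14; 2.11, 0.796 to 6.17). Of 9 PP2A partners and STRIPAK genes with 10 or more reads, 2 were higher and none lower. PPME1, which removes the methyl group from the PP2A catalytic subunit, had 5 and 20 reads (4.22, 1.54 to 14.4).

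Of 20 partners of PP1, PP4 and PP6, 2 were higher and 2 lower. PHACTR2, a PP1 and actin binding protein, had 27 and 53 reads (2.07, 1.28 to 3.42). TP53BP2 (ASPP2), the remaining ASPP protein, had 16 and 7 (0.461, 0.160 to 1.18), and RIF1, which brings PP1 to replication origins, had 17 and 5 (0.310, 0.0895 to 0.876). Of 10 calcineurin pathway genes, 1 was higher and none lower, the calcium exchanger SLC8A1. Of 17 partners and substrates of tyrosine phosphatases, the receptor kinase MET was higher (8 and 44 reads; 5.80, 2.70 to 14.3) and the transcription factor STAT3 lower (28 and 6; 0.226, 0.0765 to 0.556). The called shares of the 5 lists ran from 10% to 26.9%, beside 27.5% over all host genes.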

How the data were processed

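Circular junctions were sequenced in 1 control and 1 bone cancer pain library. The submitters' processing notes name CASAVA 1.8, BWA and the build rn6; which circRNA caller was run, and with what read minimum, is not given in the sources used here. All of the authors' deposited values carry the name TPM but are RPM of the library's junction reads, since every value above the placeholder of 0.001 was a whole multiple (within 0.01 reads) of 1 step per library, whatever the circRNA's length. Reads are values divided by this step. The lowest listed value was 2 reads and the placeholder was taken as 0, so no ratio is given against a library with none listed, or for a host gene without a circRNA common to both libraries. The 159941 and 151685 reads limit the precision, and PCR reads are not independent molecules.

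Ratios are of library shares, with exact conditional binomial 95% intervals; shares have Clopper-Pearson intervals. Host sums used rows naming 1 gene. Calls used 0.5 reads added, a ratio of 2 or 0.5 and 10 or more reads, and are sizes, not tests. Host genes with 20 or more reads, and those with 10 or more past 2-fold, are named. Named circRNAs are the 15 most abundant, those with the 8 highest or 8 lowest ratios on 20 or more reads, and, in host genes with 3 or more circRNAs and 100 or more reads, the most abundant and, among those with 10 or more reads, the one whose share differs most. Up to 4 partner genes per list are named. Members, roles and lists were chosen with earlier results of these data known. The other settings were further scalings, minimums, added reads, thresholds and junction subsets. CircRNAs of chromosome Y and of the X inactivation genes were left out. The ratio and call rule were tried on simulated counts with counting error only. Changes were set there on features with 20 or more reads. That simulation held no variation between animals or libraries and gave no rate of false calls. Tools were Python 3.11.15, scipy 1.17.1, numpy 2.4.6, pandas 2.3.3 and matplotlib 3.10.9.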

Additional observations from a re-analysis of the deposited data

Results flagged for a closer look

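A further 24 rows of the table named a phosphatase beside other gene or small RNA names and so were outside the members; they held 136 control and 123 bone cancer pain reads. For 6 phosphatase genes these were the only rows, and the 3 of them with the most reads are given here. PTPRG, a receptor-type tyrosine phosphatase with a carbonic anhydrase-like domain, had 19 reads, 6 control and 13 bone cancer pain reads. PPP3CA, a catalytic gene of calcineurin, had 14, as 12 and 2. PTPN21 had 4, as 2 and 2. The differences between the libraries were not tested.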

How the results depend on the processing

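With 1 library per group, no value has a replicate check. Minimums and thresholds enter counts and medians, not single ratios. No paired analysis was possible because each group had 1 library. The number of host genes higher, 5, was 0 with a minimum of 20 reads, 10 with none, 10 at a 1.5-fold threshold, 2 with an interval excluding 1, 3 with circBase identifiers only and 3 without the circRNA with the most reads of each host gene. The number lower, 3, was 1, 9 and 9 under the first 3 of these and 1 without the leading circRNAs. For circRNAs, 11 higher became 17 with a minimum of 5 reads, 5 with 20, 51 with none, 17 at 1.5-fold and 6 without the leading circRNAs, and 10 lower became 25, 2 and 55 under the 3 minimums and 4 with an interval excluding 1. The 16 partner genes past the threshold became 26, 9 and 47 under these minimums and 36 at 1.5-fold. Without the leading circRNAs the host median turned from -0.05 to 0.02, and log2 ratios moved from -0.33 to 0.05 for receptor-type and from 0.31 to -0.12 for non-receptor tyrosine phosphatases, and from -0.16 to 0.27 for catalytic and from 0.00 to 0.19 for regulatory subunits; PPP1R7 turned to -2.25 with circBase identifiers only. The cause of these changes was not tested. Median of ratios scaling shifted all log2 ratios by -0.08 and TMM by -0.01.

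Other settings for shares and partner lists were chosen after seeing the data. So were 3 settings for all values: only circRNAs listed in both libraries, circRNAs not listed taken as 1 read, and rows naming several genes added. The setting with circBase identifiers only was planned, except for shares and partner lists. With circBase identifiers only, the shares of the leading circles in the bone cancer pain library became 100% for PPP6R2 and PPP1R13B, and that of PPP6R3 hsa_circ_0008391 became 29.9%. With only circRNAs listed in both libraries, 2 host genes were higher. The PPP6R2 share in the bone cancer pain library was then 92.7%, and those of PPP1R13B were 100% in both libraries. Taking circRNAs not listed as 1 read, or adding rows naming several genes, changed no count by over 1.5 times. Depth limits the rest: 103 circRNAs and 14 host genes had under 10 reads and were given no call.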
